A study of Mus musculus with 6 samples.

Results

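NF-kB is a family of dimeric transcription factors that are held in the cytoplasm by IkB proteins. Signals from receptors lead to phosphorylation and destruction of IkB, the dimers enter the nucleus, and among the genes they switch on are those of their own inhibitors, which ends the response. In developing B lymphocytes the family supports survival and maturation, and in mouse fibroblasts and macrophages that lack cryptochromes a raised NF-kB activity has been described. The genes described here encode the subunits Nfkb2, Rela, Relb and Rel and the inhibitors Nfkbia, Nfkbie and Tnfaip3. They also encode the atypical IkB protein Bcl3 and the target Icam1. Members were all probe sets whose single gene symbol was one of 10 named genes, which gave 16 of 45037 probe sets and 9 of 18193 genes, and Nfkb1 was not analysed here.

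The study compared cultured bone marrow cells of Cry1 and Cry2 double knockout mice (DKO 1 to DKO 3) with cells of wild-type mice (WT 1 to WT 3), 3 arrays each, all of strain C57BL/6. Cry1 and Cry2 encode the repressors of the circadian clock. Both genotypes were grown with 20% serum and 10 ng/ml interleukin-7, a cytokine that sustains early B lymphocytes. The sources used here do not say whether arrays of a genotype came from separate mice or cultures, so the spread behind every p-value is that between arrays and may be technical only. They give neither the age of the mice nor the time of day of harvest.

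WT 2 stood apart from the other 5 arrays and is shown apart. Its 3' to 5' signal ratio for Actb was 824, against 1.47 to 2.05 on the others, and its median signal was 115, against 44.0 to 55.3. Values below are deposited signals unless said to be log2. A log2 value is log2(intensity + 16) with the array medians aligned, so it understates the change of dim genes. Across the 27022 probe sets tested, the median log2 difference (DKO minus WT) was 0.21 with all 6 arrays, -0.02 without WT 2 and -0.10 in the signals as deposited, and each difference is to be read against that shift. Levels of different probe sets are not compared, since probes differ in binding.

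NF-kB is known to act on several of its own genes, so their promoters were searched for its motif. RefSeq promoter windows of build GRCm38.p6, each from 250 bases before to 50 bases after a transcription start, were found for 8 of the 10 genes, 11 windows in all. The kappa B decamer, the consensus bound by NF-kB, was searched on both strands and matched in 8 of the 11 windows and in 6 of the 8 genes. It matched in 8.46% of all 32851 windows. Of the Nfkb2 windows 2 overlap and share 1 match. The E-box CACGTG, on which cryptochromes repress CLOCK and BMAL1, matched in 1 member window, that of Tnfaip3, and in 7.15% of all windows. A match is a description of the letters, not a site shown to be bound. Printed here are the windows of Nfkbia, the classical feedback inhibitor, of Tnfaip3, which holds both motifs, and of Rel and Icam1, the genes whose DKO arrays all read above the WT arrays. Capitals mark the matches, and where 2 kappa B matches overlap, as in Rel, they form 1 run. Each window is written 5′ to 3′ on the strand of its gene.
Nfkbia, chr12:55492598-55492897, minus strand: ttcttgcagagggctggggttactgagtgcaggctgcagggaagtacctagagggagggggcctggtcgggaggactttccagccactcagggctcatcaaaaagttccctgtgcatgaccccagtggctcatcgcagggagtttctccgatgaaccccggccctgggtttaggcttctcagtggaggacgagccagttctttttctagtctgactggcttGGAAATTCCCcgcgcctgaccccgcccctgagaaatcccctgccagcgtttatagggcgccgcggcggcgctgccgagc
Tnfaip3, chr10:19015361-19015660, minus strand: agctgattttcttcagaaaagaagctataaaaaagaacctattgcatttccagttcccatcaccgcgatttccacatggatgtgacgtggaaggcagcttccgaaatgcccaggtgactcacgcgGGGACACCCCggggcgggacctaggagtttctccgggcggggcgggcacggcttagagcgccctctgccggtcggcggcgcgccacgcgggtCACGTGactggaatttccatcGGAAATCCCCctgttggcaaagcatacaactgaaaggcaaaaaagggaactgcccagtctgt
Rel, chr11:23770920-23771219, minus strand: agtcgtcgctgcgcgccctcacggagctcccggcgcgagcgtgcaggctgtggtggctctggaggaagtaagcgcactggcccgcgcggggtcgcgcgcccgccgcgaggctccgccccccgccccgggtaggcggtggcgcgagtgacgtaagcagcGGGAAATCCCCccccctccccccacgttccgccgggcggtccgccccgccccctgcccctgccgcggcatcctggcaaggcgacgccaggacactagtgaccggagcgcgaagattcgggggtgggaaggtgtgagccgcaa
Icam1, chr9:21015690-21015989, plus strand: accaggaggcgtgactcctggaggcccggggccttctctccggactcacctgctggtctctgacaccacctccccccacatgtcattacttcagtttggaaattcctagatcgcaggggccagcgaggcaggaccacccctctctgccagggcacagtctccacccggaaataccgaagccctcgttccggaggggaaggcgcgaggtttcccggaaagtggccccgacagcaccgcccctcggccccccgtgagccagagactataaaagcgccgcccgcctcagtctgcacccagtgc
In the Nfkbia window the match begins 29 bases before the start. In the Tnfaip3 window the kappa B matches begin 125 and 12 bases before the start and the E-box 33 bases before it. In the Icam1 window these letters did not occur, which says nothing of NF-kB at that gene.

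No member probe set passed the test between DKO and WT. In limma's fit over all tested probe sets, with Benjamini-Hochberg adjustment, 0 of the 16 were called with all 6 arrays, where 0.0074% of all were called, and the adjusted p ranged from 0.822 to 0.92. At an unadjusted p under 0.05, 0 of the 16 passed, where 3.12% of all did. Without WT 2, 0 were called, where 0.0259% of all were, and 3 passed unadjusted, where 4.35% of all did. Of these 3, Icam1 was higher in DKO, where 2.28% of all were, and Nfkb2 1429128_x_at and Nfkbia 1420089_at were lower, where 2.08% of all were. Array weights altered the count. Weights estimated over all probe sets at once, an estimate that stopped before it converged and put 30.8 on WT 1, called 8 of the 16, where 30.1% of all were called, and weights estimated gene by gene, added after seeing the data, called 1, Nfkbia 1420089_at, at a limma adjusted p of 0.0484, where 3.41% of all were called. With both WT 2 and DKO 3 left out, 1099 of all probe sets were called and 0 of the 16. Taking each gene by its probe set with the highest mean, 6 of 9 genes read higher and 3 lower in DKO, where 64.9% of all probe sets read higher. Without WT 2, 7 of 9 read higher, where 47.4% of all did. The median log2 difference of the 9 genes was 0.63 with all 6 arrays and 0.11 without WT 2.

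**Figure D1:**
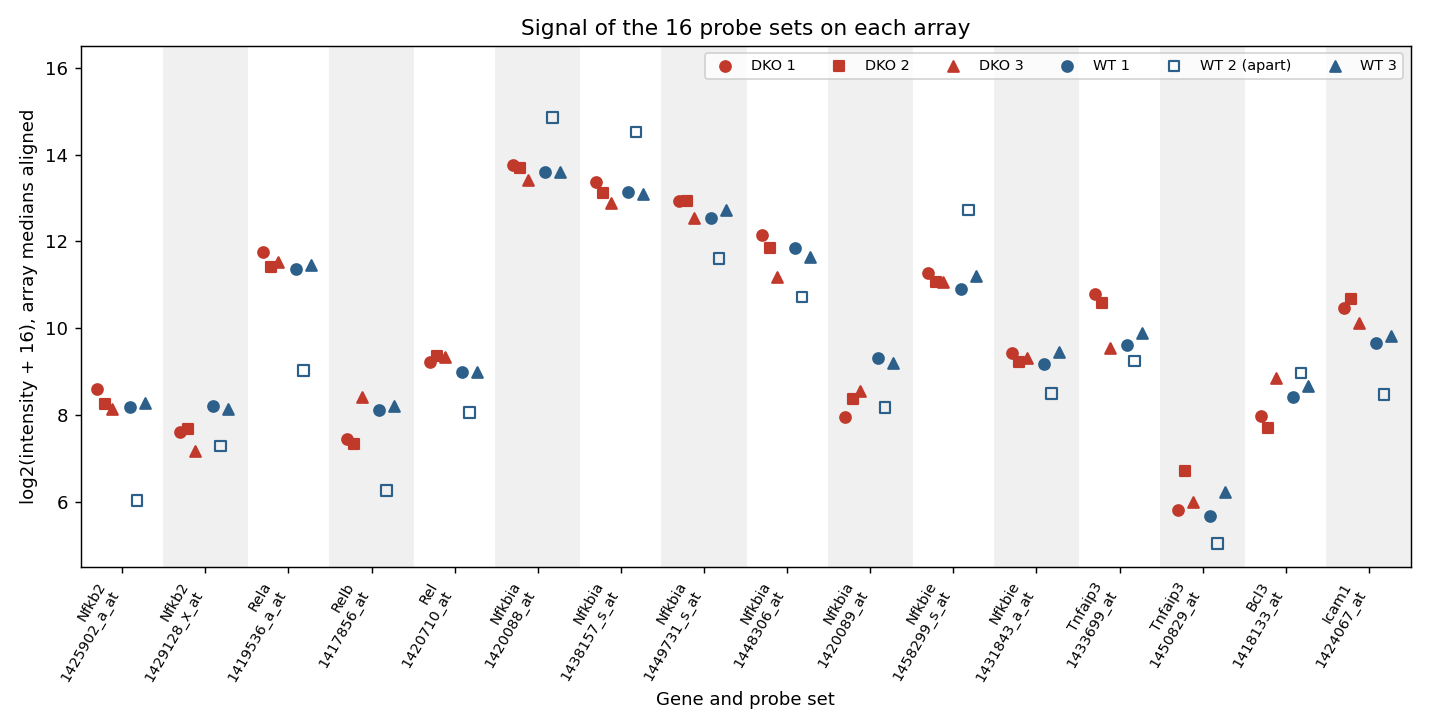
Signal of each member probe set on each array, as log2(intensity + 16) with array medians aligned; each point is 1 array, DKO left and WT right, and the open square is WT 2. WT 2 lies far from WT 1 and WT 3 for most probe sets, and for Icam1 and Rel all 3 DKO points lie above all 3 WT points.

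Among the subunits, Rel, the lymphoid subunit c-Rel, had the smallest spread among DKO arrays of the 16 probe sets. It read 559, 605 and 504 in DKO 1 to 3, against 464 and 411 in WT 1 and WT 3 and 455 in WT 2. All DKO arrays lay above all WT arrays. With medians aligned they did so for 2 of 16 member probe sets, where 6.97% of all tested did. Setting WT 2 aside, that count stayed at 2 of 16, where 10.3% of all did. With WT 2 included and medians aligned, 0 of 16 lay below all WT arrays, where 3.29% of all did. As deposited, Nfkb2 1429128_x_at and Nfkbia 1420089_at lay below all WT arrays. On the log2 scale Rel averaged 9.31 ± 0.07 in DKO and 8.69 ± 0.54 in WT (SD, n = 3 each). The difference was 0.63 on that scale (SE 0.42, limma adjusted p = 0.822). Without WT 2 it was 0.32 with a 95% confidence interval of -0.22 to 0.85 and a limma adjusted p of 0.948.

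Rela encodes the main activating subunit of the canonical pathway. It read 3292, 2530 and 2345 in DKO 1 to 3, against 2474 and 2334 in WT 1 and WT 3 and 906 in WT 2. The genotypes overlapped apart from WT 2, which was low. Its log2 difference was 0.94 with all 6 arrays (limma adjusted p = 0.822) and 0.15 without WT 2, with a 95% confidence interval of -0.33 to 0.62.

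Relb, the subunit that pairs with the Nfkb2 product in the alternative pathway, divided the DKO arrays. It read 152, 136 and 257 in DKO 1 to 3, against 247 and 232 in WT 1 and WT 3 and 120 in WT 2. DKO 3 was the highest of the 6 arrays, and DKO 1 and DKO 2 lay between WT 2 and the other WT arrays. Between genotypes it differed by 0.20 on the log2 scale with all 6 arrays, -0.44 without WT 2 and -0.11 in the signals as deposited, so its direction was not settled.

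The 2 probe sets of Nfkb2, the precursor that is processed in the alternative pathway, went opposite ways. Probe set 1425902_a_at read 358, 272 and 211 in DKO 1 to 3, against 257 and 244 in WT 1 and WT 3 and 99.4 in WT 2. Its log2 difference was 0.84 with all 6 arrays and 0.11 without WT 2. Probe set 1429128_x_at, whose suffix marks probes that may bind other transcripts, read 171, 178 and 99.9 in DKO 1 to 3, against 261 and 220 in WT 1 and WT 3 and 259 in WT 2. Its DKO signals all lay below the WT signals as deposited, but with medians aligned WT 2 fell among them. On the log2 scale it differed by -0.39 (limma adjusted p = 0.822), and without WT 2 by -0.68 with a 95% confidence interval of -1.33 to -0.03 and a limma adjusted p of 0.948.

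**Figure D2:**
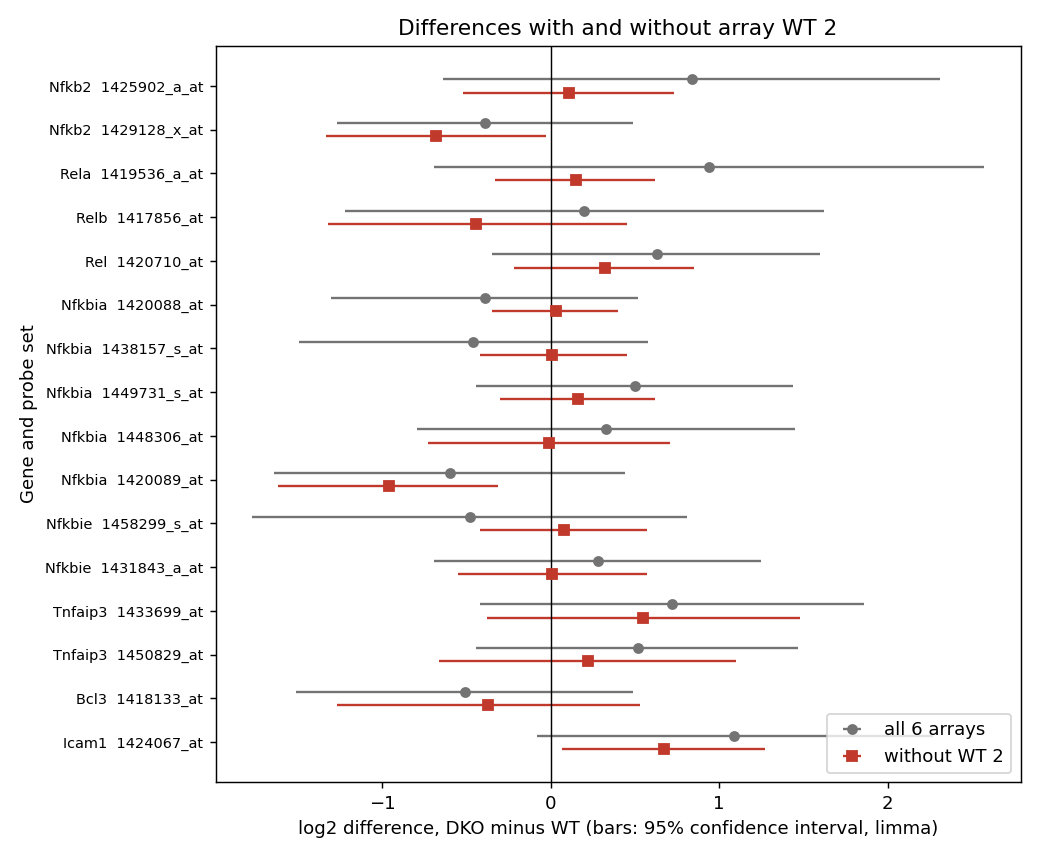
Log2 difference (DKO minus WT) of the 16 probe sets with 95% confidence intervals from limma, grey for all 6 arrays and red without WT 2. Most intervals hold 0 in both fits, and the red intervals of Nfkb2 1429128_x_at, Nfkbia 1420089_at and Icam1 do not, with limma adjusted p of 0.948 for each.

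Nfkbia encodes IkB alpha, the inhibitor that NF-kB induces within its own response, and 5 probe sets measured it. The probe set with the highest mean, 1420088_at, read 13373, 12348 and 8837 in DKO 1 to 3, against 11681 and 10355 in WT 1 and WT 3 and 51920 in WT 2. Apart from WT 2 the genotypes overlapped, with DKO 3 the lowest array. Its log2 difference was -0.39 with all 6 arrays and 0.03 without WT 2, with a 95% confidence interval of -0.35 to 0.40. Without WT 2 the next 3 probe sets differed by 0.01 for 1438157_s_at, 0.16 for 1449731_s_at and -0.01 for 1448306_at.

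The fifth Nfkbia probe set, 1420089_at, did not follow the other 4. It read 220, 293 and 286 in DKO 1 to 3, against 586 and 470 in WT 1 and WT 3 and 493 in WT 2. All DKO arrays lay below WT 1 and WT 3, as for 2 of 16 member probe sets, where 8.14% of all tested did, and with medians aligned WT 2 (8.17) lay among the DKO arrays (7.95 to 8.55). Its log2 difference was -0.60 (limma adjusted p = 0.822), and without WT 2 it was -0.96 with a 95% confidence interval of -1.62 to -0.31 and a limma adjusted p of 0.948. What part of the Nfkbia transcript this probe set reads is not given in the sources used here.

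WT 2 split the probe sets of Nfkbia, Nfkbie and Nfkb2. Its signal was 4.59 and 5.17 times the mean of the other arrays for Nfkbia 1420088_at and 1438157_s_at, against 0.891, 0.939 and 1.33 times for 1449731_s_at, 1448306_at and 1420089_at. For Nfkbie it was 6.08 times for 1458299_s_at and 1.11 times for 1431843_a_at, and for Nfkb2 0.37 times for 1425902_a_at and 1.40 times for 1429128_x_at. Without WT 2 the log2 differences of 6 of the 7 Nfkbia and Nfkbie probe sets lay between -0.01 and 0.16, and that of 1420089_at was -0.96.

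Nfkbie encodes IkB epsilon, another inhibitor induced by NF-kB. Probe set 1458299_s_at read 2362, 1982 and 1700 in DKO 1 to 3, against 1796 and 1944 in WT 1 and WT 3 and 11904 in WT 2. Probe set 1431843_a_at read 645, 541 and 498 in DKO 1 to 3, against 527 and 570 in WT 1 and WT 3 and 620 in WT 2. Both overlapped between genotypes. Without WT 2 their log2 differences were 0.08 (95% confidence interval -0.42 to 0.57) and 0.01 (-0.55 to 0.57).

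Tnfaip3, a ubiquitin-editing enzyme that shuts off signalling to NF-kB, was high on 2 DKO arrays. Probe set 1433699_at read 1679, 1417 and 590 in DKO 1 to 3, against 724 and 776 in WT 1 and WT 3 and 1058 in WT 2. DKO 1 and DKO 2 were above every WT array and DKO 3 was the lowest of the 6 as deposited. On the log2 scale it averaged 10.31 ± 0.66 in DKO and 9.59 ± 0.32 in WT (SD, n = 3 each). This difference was 0.72 (SE 0.49, limma adjusted p = 0.822) and 0.55 without WT 2 (95% confidence interval -0.38 to 1.48). The other probe set, 1450829_at, was dim, at 38.0, 82.8 and 35.0 in DKO 1 to 3, against 32.3 and 46.7 in WT 1 and WT 3 and 42.4 in WT 2.

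Bcl3, an atypical nuclear IkB protein that modulates transcription by NF-kB dimers, read lower on the same 2 DKO arrays. It read 226, 180 and 355 in DKO 1 to 3, against 306 and 325 in WT 1 and WT 3 and 868 in WT 2. DKO 3 was above WT 1 and WT 3. It differed by -0.51 on the log2 scale (SE 0.42, limma adjusted p = 0.822) and by -0.37 without WT 2 (95% confidence interval -1.27 to 0.53).

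Icam1, an adhesion molecule that binds leukocyte integrins and is a standard NF-kB target, had the smallest p of the 16 with all 6 arrays. It read 1335, 1515 and 873 in DKO 1 to 3, against 746 and 741 in WT 1 and WT 3 and 614 in WT 2. All DKO arrays lay above all WT arrays, with DKO 3 nearest to them. On the log2 scale it averaged 10.41 ± 0.29 in DKO and 9.32 ± 0.73 in WT (SD, n = 3 each). The difference was 1.09 (SE 0.50, limma adjusted p = 0.822), a fold of 2.13. Without WT 2 it was 0.67 with a 95% confidence interval of 0.07 to 1.27, a limma adjusted p of 0.948 and a fold of 1.59. Under 3 other scalings of all 6 arrays it was 0.62 to 0.80, and with WT 2 and any 1 further array left out it was 0.54 to 0.83.

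The summed signals of granulocyte, B lineage and T and NK cell markers set DKO 3 apart from DKO 1 and DKO 2, as Tnfaip3, Relb and Bcl3 did. The summed signal of 11 granulocyte markers was 604, 583 and 27687 in DKO 1 to 3, against 75677 and 19169 in WT 1 and WT 3 and 178761 in WT 2. At or below the array median were 6 of the 11 in DKO 1 and 8 in DKO 2, and 0 in DKO 3 and on each WT array. S100a8 (94059) and S100a9 (69958) made most of the WT 2 sum. They, Elane, Mpo and Prtn3 read higher in WT 2 than in WT 1 as deposited. Ltf, Camp, Ngp, Lcn2, Csf3r and Mmp8 read lower in WT 2 than in WT 1. The 10 macrophage and monocyte markers summed to 15629, 8831 and 19962 in DKO 1 to 3, against 36788 and 12150 in WT 1 and WT 3 and 54384 in WT 2, with Cd163 at or below the median on each of the 5 arrays other than WT 2. The 9 B lineage markers, all above the median on all 6 arrays, summed to 105400, 109326 and 66284 in DKO 1 to 3, against 70886 and 72024 in WT 1 and WT 3 and 136162 in WT 2. Not every B lineage marker followed that sum. Igll1 did, at 28090, 28005 and 14442 in DKO 1 to 3. Cd79b, at 20492, 22357 and 19294, did not set DKO 3 apart, and Rag1, at 1513, 1200 and 2472, was highest in DKO 3. Vpreb1 (51355) and Igll1 (58291) made most of the WT 2 sum. They and Ebf1 read highest on WT 2 as deposited, but Cd79a, Cd79b, Pax5, Rag1 and Blnk read lowest there, and Dntt lay between. Markers of T and NK cells summed to 815, 1193 and 308 in DKO 1 to 3, against 502 and 324 in WT 1 and WT 3 and 1161 in WT 2. Of the 8 tested, 5 read higher and 3 lower in DKO with all 6 arrays, and 0 were called. Cd3d, Cd3g and Klrd1 were higher at an unadjusted limma p under 0.05, where 1.81% of all probe sets were. Without WT 2, Cd3g and Klrd1 were, where 2.28% of all were. Cd28, Cd8a and Ncr1 were lower, at -0.65, -0.45 and -0.22 on the log2 scale. Unadjusted with all 6 arrays, 2 of 9 B lineage and 2 of 6 dendritic markers were also higher in DKO. Lower were 5 of 11 granulocyte and 2 of 9 tested macrophage markers, where 1.31% of all were. Cd3d, a chain of the T cell receptor complex, read 155, 295 and 8.43 in DKO 1 to 3, against 10.6 and 7.90 in WT 1 and WT 3 and 14.0 in WT 2, so DKO 1 and DKO 2 were high and DKO 3 lay with the WT arrays. Dendritic cell markers summed to 1293, 1701 and 1125 in DKO 1 to 3, against 1298 and 1031 in WT 1 and WT 3 and 612 in WT 2. Stromal and endothelial markers summed to 693, 1067 and 551 in DKO 1 to 3, against 545 and 741 in WT 1 and WT 3 and 939 in WT 2. For the macrophage, dendritic and stromal sums DKO 1 lay nearer to DKO 3 than to DKO 2. Lyz2 made most of the macrophage sum, at 12911, 6642 and 12639 in DKO 1 to 3. Most other tested macrophage markers were higher in DKO 3 than in DKO 1 and DKO 2. Csf1r read 1012, 910 and 2703 in DKO 1 to 3 and Tyrobp 757, 485 and 1866, but Itgam read 27.0, 49.7 and 40.6. Cd4, Ncr1, Gzma, Xcr1, Col1a1, Col3a1, Pdgfrb and Cxcl12 were at or below the median on each of the 5 arrays other than WT 2. The part of these cells in the members' differences was not tested, and in such mixed cultures fewer cells of a type and less RNA per cell cannot be told apart.

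**Figure D3:**
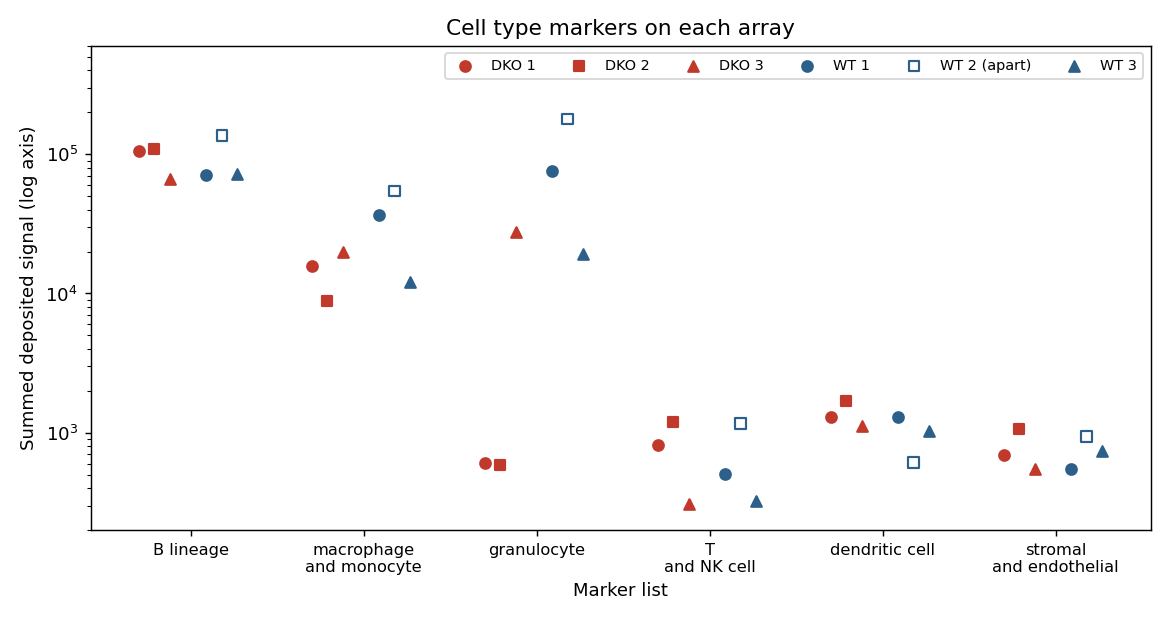
Summed deposited signal of each marker list on each array, on a log axis, DKO left and WT right, with WT 2 as an open square. DKO 1 and DKO 2 have granulocyte sums of 604 and 583, and DKO 3, at 27687, lies between WT 3 and WT 1.

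The genes nearest in pattern were sought for Tnfaip3, Bcl3 and Relb, the 3 genes with the widest range when each is taken by its probe set of highest mean, and they share the division of arrays by construction. Nfkbia 1420089_at, which is not that gene's probe set of highest mean, had a wider range (1.37 on the log2 scale, against 1.24, 1.14 and 1.06). Likeness was the mean absolute difference of log2 values over the 5 arrays other than WT 2, after each gene's mean was subtracted. Nearest to Tnfaip3 were Carns1 (0.0351), Crebrf (0.0509) and Irgq (0.0596), and Carns1 read 854, 732 and 322 in DKO 1 to 3, against 371 and 408 in WT 1 and WT 3. Nearest to Bcl3 were Rfc5 (0.0197), Ercc6l (0.021) and Spire1 (0.0256). Nearest to Relb were Lyar (0.0192), Mad2l1 (0.0199) and Polr2e (0.0312), and Mad2l1 read 5386, 4789 and 8588 in DKO 1 to 3, against 7996 and 7886 in WT 1 and WT 3. With 5 arrays and 12627 genes, close neighbours are found for most patterns.

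Of the other genes of the pathway, in 4 lists, 0 were called by limma with all 6 arrays or without WT 2. The counts of each list stand against 64.9% of all probe sets higher in DKO with all 6 arrays and 47.4% without WT 2. Receptors and adaptors read higher in DKO for 16 of 26 with all 6 arrays and 13 of 26 without WT 2, and the medians were 0.24 and 0.01. At an unadjusted p under 0.05, 1 passed, lower in DKO, where 1.31% of all did, and 0 without WT 2. That 1 was Tlr4, the endotoxin receptor, at 33.5, 72.1 and 75.8 in DKO 1 to 3, against 127 and 97.9 in WT 1 and WT 3 and 389 in WT 2. Its log2 difference was -1.03 (limma adjusted p = 0.822) and -0.81 without WT 2. Cd40, the receptor for T cell help to B cells, read 102, 95.1 and 252 in DKO 1 to 3, against 209 and 373 in WT 1 and WT 3 and 746 in WT 2, a log2 difference of -1.10 (limma adjusted p = 0.822).

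All 11 kinases of IkB and their activators had a higher mean in DKO with all 6 arrays, where 64.9% of all probe sets did. Without WT 2, 9 of the 11 did, where 47.4% of all did. The medians were 0.34 and 0.08. In the signals as deposited 6 of the 11 did, where 11742 of all 27022 did. Under quantile normalization 6 did, where 13208 of all 27022 did. Ikbkb, the catalytic kinase of the canonical pathway, read 3439, 3221 and 3017 in DKO 1 to 3, against 2802 and 3055 in WT 1 and WT 3 and 1156 in WT 2. Its log2 difference was 0.89 with all 6 arrays and 0.12 without WT 2. Ikbke differed by 1.22 and by 0.35 without WT 2. At an unadjusted p under 0.05, 0 of the 11 passed in either fit.

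Other inhibitors and feedback genes read higher in DKO for 11 of 13 with all 6 arrays and 6 of 13 without WT 2, and the medians were 0.39 and -0.08. Unadjusted, 0 passed with all 6 arrays and 1 without WT 2, lower in DKO, where 2.08% of all were. That 1 was Nfkbid, a nuclear IkB protein, at -0.77, named here after its value was seen, and -0.35 with all 6 arrays. Itch, a ubiquitin ligase, differed by 0.97 and by 0.29 without WT 2, and Nfkbil1 by 0.80 and 0.24.

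Other target genes read higher in DKO for 18 of 27 with all 6 arrays and 11 of 27 without WT 2, and the medians were 0.18 and -0.14. Unadjusted, 2 passed with all 6 arrays, Ccl5 higher in DKO, where 1.81% of all were, and Mmp9 lower, where 1.31% were. Without WT 2, 3 passed, Ccl5 higher, where 2.28% of all were, and Mmp9 and Irf4 lower, where 2.08% were. Irf4, a regulator of plasma cell formation named here after its value was seen, differed by -0.52 without WT 2 (limma adjusted p = 0.948) but by 0.73 with all 6 arrays, so its direction was not settled. Ccl5, a chemokine of T cells, read 106, 167 and 130 in DKO 1 to 3, against 74.2 and 50.7 in WT 1 and WT 3 and 194 in WT 2, a log2 difference of 0.77 with a limma adjusted p of 0.822. Mmp9, a protease of neutrophil granules and macrophages, read 1.77, 4.02 and 127 in DKO 1 to 3, against 476 and 109 in WT 1 and WT 3 and 418 in WT 2, a log2 difference of -2.70 with a limma adjusted p of 0.822. With DKO 1 and DKO 2 this dim, the size of that difference depends on the pseudocount, at -4.16 with 1 and -1.70 with 64 in place of 16. Like the granulocyte sums, Mmp9 was lowest in DKO 1 and DKO 2, with DKO 3 near WT 3. Unlike them it was highest in WT 1, where the granulocyte sum was highest in WT 2.

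**Figure D4:**
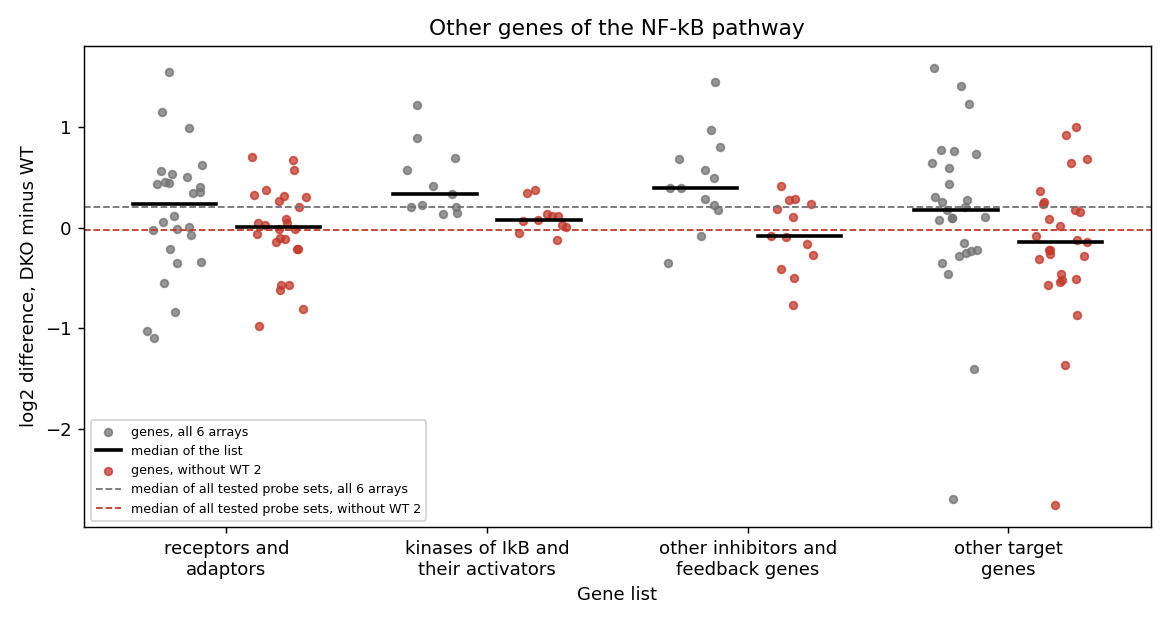
Log2 difference (DKO minus WT) of each tested gene in 4 lists of other pathway genes, grey for all 6 arrays and red without WT 2, with the list medians as black bars and the medians of all tested probe sets as dashed lines. The list medians are 0.24, 0.34, 0.39 and 0.18 with all 6 arrays, and 0.01, 0.08, -0.08 and -0.14 without WT 2, nearer to 0 in each list.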

How the data were processed

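The deposited table held intensity on a linear scale, 1 MAS5 signal per probe set and array, with the tool named per the submitters' processing notes but not its version. After trimming 2% at each end, signals averaged 500 on every array. Detection calls and scan batches were not used here. Of 45101 probe sets, 64 were controls. Of the other 45037, 34945 had 1 gene symbol, 932 several and 9160 none.

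Values were transformed as log2(intensity + 16). Since array medians spanned 1.13 against a limit of 0.5, arrays were aligned on their medians. The filter kept the 27022 probe sets whose mean exceeded percentile 40, which were tested with limma 3.58.1 in R 4.3.3 (group as the single term, trended prior variance, two-sided), and p was adjusted by Benjamini-Hochberg at 0.05. All 16 member probe sets passed the filter, so none was lost to it. The fit was tested on simulated data. A gene was taken by its probe set with the highest mean.

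The members, the lists and the tests were chosen with earlier results of these data known. All probe sets of the members are described. Of each other pathway list the rule named the called genes or the 2 with the smallest p. For the 3 members with the widest range, each taken by its probe set of highest mean, over the arrays other than WT 2, it named the 3 genes nearest in pattern. Alternatives were other normalizations, pseudocounts (1 and 64) and filters (none and percentile 60), no trend, array weights, the replicate number as a block and each array left out. Fits without WT 2 under quantile normalization, without WT 2 and 1 other array, and with gene-by-gene weights were added after seeing the data. Python 3.11.15, numpy 2.4.6, pandas 2.3.3 and matplotlib 3.10.9 made tables and figures. Same-numbered arrays had correlations of deviations from the genotype means of -0.151 and -0.00189 for numbers 1 and 2 and 0.334 for number 3. The numbers were not taken as pairs. Since the WT mean includes WT 2, these deviations cannot decide whether equal numbers mark pairs. DKO 3 and WT 3 were each the closest array to the other, at a correlation of log2 values of 0.982.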

Additional observations from a re-analysis of the deposited data

How the results depend on the processing

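Of the 16 member probe sets, 0 were called in each setting tried except array weights. That estimate stopped before it converged, with a weight of 30.8 on WT 1 and 0.0526 on WT 2, and called 8 members among 8129 probe sets. Gene-by-gene weights called 1 member among 922. All tested probe sets gave 2 calls with all 6 arrays, 0 with no centring, centring over the tested probe sets, quantile normalization, pseudocount 1 or the replicate block, 1 with a filter at percentile 60, and 5 without WT 2 under quantile normalization. With 1 array left out, or WT 2 and 1 other, the calls ranged from 0 to 1099, the highest without WT 2 and DKO 3, 7 without WT 2 alone and 6 without WT 2 and DKO 1, and 0 of the calls were members. The number of member genes higher in DKO was 5 to 7 of 9 throughout, but these were not the same genes in each setting. Of all 27022 tested probe sets, 11742 read higher in DKO with no centring and 18076 with pseudocount 1. The replicate block left the log2 differences as they were, and changed no call of a member. Directions turned as follows, and the cause was not tested. Relb (0.20) read -0.66 and -0.67 with the 2 kinds of array weights, -0.10 with centring over the tested probe sets, -0.11 with no centring and -0.42 without WT 2 under quantile normalization, and -0.77 to 0.54 with arrays left out. Nfkbia 1420088_at (-0.39) read 0.08, 0.07 and 0.03 with both weights and without WT 2 under quantile normalization, and -0.60 to 0.13 with arrays left out. Nfkbia 1438157_s_at (-0.46) read 0.02, 0.02 and 0.03, and -0.71 to 0.13. Nfkbie 1458299_s_at (-0.48) read 0.19, 0.10 and 0.10, and -0.83 to 0.22. Nfkbie 1431843_a_at (0.28) read -0.01 with centring over the tested probe sets, -0.03 with no centring and -0.19 with quantile normalization, and -0.14 to 0.49 with arrays left out. Nfkbia 1448306_at (0.33) read -0.03 with quantile normalization and -0.23 to 0.60 with arrays left out. With arrays left out Nfkb2 1425902_a_at ranged from -0.03 to 1.23, Tnfaip3 1450829_at from -0.06 to 0.81 and Ikbkb from -0.03 to 1.35. The other member probe sets kept their sign in all settings.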
